A study of Mus musculus with 2 samples.

Results

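The MHC class I family was followed through spatial transcriptomes of mouse pancreatic tumors. Its 9 members were taken by gene symbol from the 19465 features of the count matrices, and all 9 were present. They are the classical heavy chains H2-K1 and H2-D1, the light chain B2m, and the nonclassical heavy chains H2-Q4, H2-Q6, H2-Q7, H2-T22, H2-T23 and H2-M3. The data comprise 1 Visium CytAssist library of a tumor grown from KPC-shZEB1 cells and 1 of a tumor grown from KPC-shV cells. Per the labels, 2 tumors were collected in each group, and which tumor a library covers is not given. KPC cells are mouse pancreatic cancer cells from animals that carry Pdx-1-Cre, a recombinase driven by a pancreatic promoter. Both kinds of cell were injected into the pancreas (orthotopic allograft). They differ in the short hairpin RNA construct, which is aimed at Zeb1 in KPC-shZEB1 and is the vector control in KPC-shV. The study gives gemcitabine for these tissues, while the labels name no drug. Several mouse strains are listed for the study, and their mice are given as a few weeks old. Which strain hosted these tumors is not given in the sources used here. Class I alleles differ between strains, and the effect of host or tumor alleles on the probes was not tested. The comparison asks how class I antigen presentation genes stand in a tumor labelled for Zeb1 knockdown against its control.

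MHC class I molecules hold short peptides of a cell's own proteins at its surface, where CD8+ T cells read them. A heavy chain pairs with beta 2 microglobulin, the product of B2m, and is filled in the endoplasmic reticulum with peptides that the proteasome makes and the TAP transporter carries in. Classical chains present to T cells broadly, whereas nonclassical chains have narrower roles: H2-T23 encodes the heavy chain of Qa-1, which the NKG2A and CD94 receptor of NK cells and T cells recognizes, H2-Q7 encodes Qa-2, and H2-M3 presents formylated peptides of bacteria. Interferon gamma raises transcription of most of these genes through IRF1 and the class I transactivator NLRC5.

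Each spot covers a patch of tissue with several cells, often of unlike types, and spots of 1 section are not replicates. The matrices held 2220 spots and 140493626 unique molecular identifiers (UMIs) in the library labelled KPC-shZEB1, and 3552 spots and 172059528 UMIs in the library labelled KPC-shV. They share 1718 spot barcodes, which mark positions on the slide. Spots were sorted into classes by their own counts. Acinar-rich spots had over 20% of UMIs from 19 acinar cell genes, most of them for digestive enzymes. Of the others, T cell rich spots had at least 100 UMIs of Cd3d, Cd3e and Cd3g per 1000000 UMIs (CPM) and at least 3 such UMIs. Hypoxic spots had over 1686 CPM of 9 hypoxia genes. The rest were split at each library's median of 5 tumor epithelium genes into keratin-rich tumor spots and remaining spots. There were 470 and 1056 keratin-rich tumor spots, 87 and 1103 hypoxic spots, 440 and 91 T cell rich spots, 754 and 247 acinar-rich spots and 469 and 1055 remaining spots in the libraries labelled KPC-shZEB1 and KPC-shV, respectively. Classes are ranges and not cell types. Up to 753 of 2111 spots, those near the keratin median of the library labelled KPC-shV, lay within 20% of a cut. Outside acinar-rich spots Zeb1 stood at 15.6 CPM under the label KPC-shZEB1 and 12.7 CPM under KPC-shV, against the direction of the label. In the same order, it stood at 11.03 and 11.16 CPM in keratin-rich tumor spots and 16.67 and 20.41 CPM in T cell rich spots. In hypoxic spots it stood at 13.17 and 8.48 CPM, and in remaining spots at 20.72 and 18.9 CPM. The direction thus differed between classes, and groups are called by their labels. A level is the sum of UMIs of a gene over the spots of a class divided by all UMIs of those spots. Ratios are given as log2 of the level labelled KPC-shZEB1 over that labelled KPC-shV, with 95% intervals that cover counting error only, since 1 library per condition allows no test. More cells of a type in a spot and more RNA per cell cannot be told apart. Probes differ between genes, so a level was compared only with the level of the same gene.

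The heavy chain genes lie on chromosome 17 and B2m on chromosome 2. On GRCm38, H2-K1 (ENSMUSG00000061232) spans chr17:33996017-34000347 on the minus strand and H2-D1 (ENSMUSG00000073411) spans chr17:35262730-35267499 on the plus strand. B2m (ENSMUSG00000060802) spans chr2:122147686-122153083 and H2-T23 (ENSMUSG00000067212) spans chr17:36029773-36032855 on the minus strand. The other members are H2-Q4 at chr17:35379617-35385290, H2-Q6 at chr17:35424850-35430055, H2-Q7 at chr17:35439155-35443773 and H2-M3 at chr17:37270220-37274484 on the plus strand and H2-T22 at chr17:36037128-36042747 on the minus strand. The 250 bases upstream of the RefSeq start sites are shown for H2-K1, H2-D1, B2m and H2-T23. These were chosen because the first pair shared the sign of the log2 ratio in each spot class, though not always its size. B2m departed from this pair in several spot classes, and H2-T23 stood furthest from the family. Capitals mark matches, on either strand, to an interferon regulatory factor motif (AANNGAAA), a kappaB motif (GGGGATTCC), a cyclic AMP response motif (TGACG) and the CCAAT box (CCAAT). Matches of different motifs do not overlap in these windows.
H2-K1: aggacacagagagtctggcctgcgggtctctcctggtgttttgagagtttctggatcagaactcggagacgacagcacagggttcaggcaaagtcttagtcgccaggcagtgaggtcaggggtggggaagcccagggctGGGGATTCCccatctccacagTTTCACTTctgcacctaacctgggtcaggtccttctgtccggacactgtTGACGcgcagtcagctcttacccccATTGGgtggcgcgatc
H2-D1: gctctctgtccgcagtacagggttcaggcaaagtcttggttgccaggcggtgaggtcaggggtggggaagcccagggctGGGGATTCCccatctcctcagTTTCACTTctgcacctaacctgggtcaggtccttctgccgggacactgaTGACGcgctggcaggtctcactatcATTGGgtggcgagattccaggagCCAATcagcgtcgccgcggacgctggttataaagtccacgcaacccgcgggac
B2m: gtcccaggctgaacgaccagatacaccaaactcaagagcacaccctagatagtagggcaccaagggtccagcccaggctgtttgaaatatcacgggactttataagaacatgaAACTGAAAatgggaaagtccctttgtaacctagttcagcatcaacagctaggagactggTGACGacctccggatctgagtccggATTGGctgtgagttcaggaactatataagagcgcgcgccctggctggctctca
H2-T23: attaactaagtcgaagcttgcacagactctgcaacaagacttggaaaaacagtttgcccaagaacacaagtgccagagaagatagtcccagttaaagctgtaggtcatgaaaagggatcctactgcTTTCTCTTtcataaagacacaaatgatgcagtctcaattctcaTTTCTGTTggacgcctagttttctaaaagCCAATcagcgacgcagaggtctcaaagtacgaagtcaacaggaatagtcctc
The windows are chr17:34000348-34000597 for H2-K1, at the more upstream of its RefSeq start sites, chr17:35262844-35263093 for H2-D1, chr2:122147437-122147686 for B2m and chr17:36032702-36032951 for H2-T23, all on GRCm38.p6. Those of H2-D1 and H2-T23 reach into the longer gene models of GENCODE M21. The H2-K1 and H2-D1 windows hold the kappaB, interferon regulatory factor, cyclic AMP response and CCAAT motifs in the same order. B2m holds the last 3 of them in that order. In the H2-T23 window, matches to the interferon regulatory factor motif start at positions -124 and -81 from the start site and a CCAAT box lies at position -52, with no kappaB or cyclic AMP response match. Over the family the interferon regulatory factor motif was found in 9 of 9 members, the kappaB motif in 4, the cyclic AMP response motif in 7 and the CCAAT box in 9. Of 32851 RefSeq promoter windows of the same length, leaving out one chromosome, 21.3%, 0.213%, 17.8% and 33.8% hold these motifs, respectively. A match is a description of letters and not a site.

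Classical heavy chains were modestly higher in keratin-rich tumor spots of the KPC-shZEB1-labelled library and lower there in hypoxic, T cell rich and remaining spots. H2-K1, which presents peptides to CD8+ T cells, was read in keratin-rich tumor spots at 2065 CPM (95% Poisson interval 2049 to 2081) in the KPC-shZEB1-labelled library and 1683 CPM (1674 to 1692) in the KPC-shV-labelled library, a log2 ratio of 0.30 (0.28 to 0.31). H2-D1, its partner in that role, was read at 2467 and 1974 CPM, a log2 ratio of 0.32 (0.31 to 0.33). The keratin-rich tumor spots of the libraries were not alike in cell content. Tumor epithelium genes were at 8870 and 7077 CPM, fibroblast genes at 2966 and 3665 CPM and macrophage genes at 1616 and 1244 CPM. The part of this content in the class I difference was not tested. Spots spread far more than the libraries differed. The middle 50% of keratin-rich tumor spots lay between 1601 and 2489.8 CPM of H2-K1 in the KPC-shZEB1-labelled library and between 1152 and 2184 CPM in the KPC-shV-labelled library, and 71.3% of the former spots exceeded the median of the latter.
In hypoxic spots H2-K1 stood at 1499 against 1698 CPM and H2-D1 at 1812 against 2081 CPM, with log2 ratios of -0.18 (-0.22 to -0.14) and -0.20 (-0.23 to -0.17). With the hypoxia cut at each library's own 75th percentile the log2 ratio of the pair turned from -0.19 to 0.023. In T cell rich spots they stood at 2431 against 2947 CPM and 3307 against 4535 CPM, with log2 ratios of -0.28 (-0.31 to -0.25) and -0.46 (-0.48 to -0.43). Of all spots that were not acinar-rich, 130 and 35 had at least 200 CPM of the T cell genes. No minimum of UMIs was set for them, so not all are T cell rich spots. In these spots the log2 ratio was 0.03 (-0.05 to 0.10) for H2-K1 and -0.15 (-0.21 to -0.10) for H2-D1. With the cut of the T cell rich class itself at 200 CPM, 129 and 22 spots were left. The pair had a log2 ratio of -0.10 (-0.14 to -0.05) in them. Only 10.2% of the T cell rich spots labelled KPC-shZEB1 had more H2-D1 than the median T cell rich spot labelled KPC-shV. The T cell rich classes were not alike in other cells: fibroblast genes were at 10783 and 19566 CPM, macrophage genes at 3560 and 4869 CPM and Ptprc, a gene of all leukocytes, at 449.7 and 557.8 CPM, while the T cell genes used for the cut were at 176 and 155 CPM. Their part in the difference was not tested. In remaining spots the log2 ratios were -0.16 and -0.17.
Summed over the spots that were not acinar-rich, H2-K1 and H2-D1 together reached 4719 CPM in the KPC-shZEB1-labelled library and 4038 CPM in the KPC-shV-labelled library, a log2 ratio of 0.22 (0.22 to 0.23). Over all spots the sign was opposite, at -0.37 (-0.37 to -0.36), and it was -0.02 once acinar genes were taken out of the total. The pair did not pass 1.5-fold between the libraries in keratin-rich tumor, hypoxic, T cell rich or remaining spots.

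**Figure D1:**
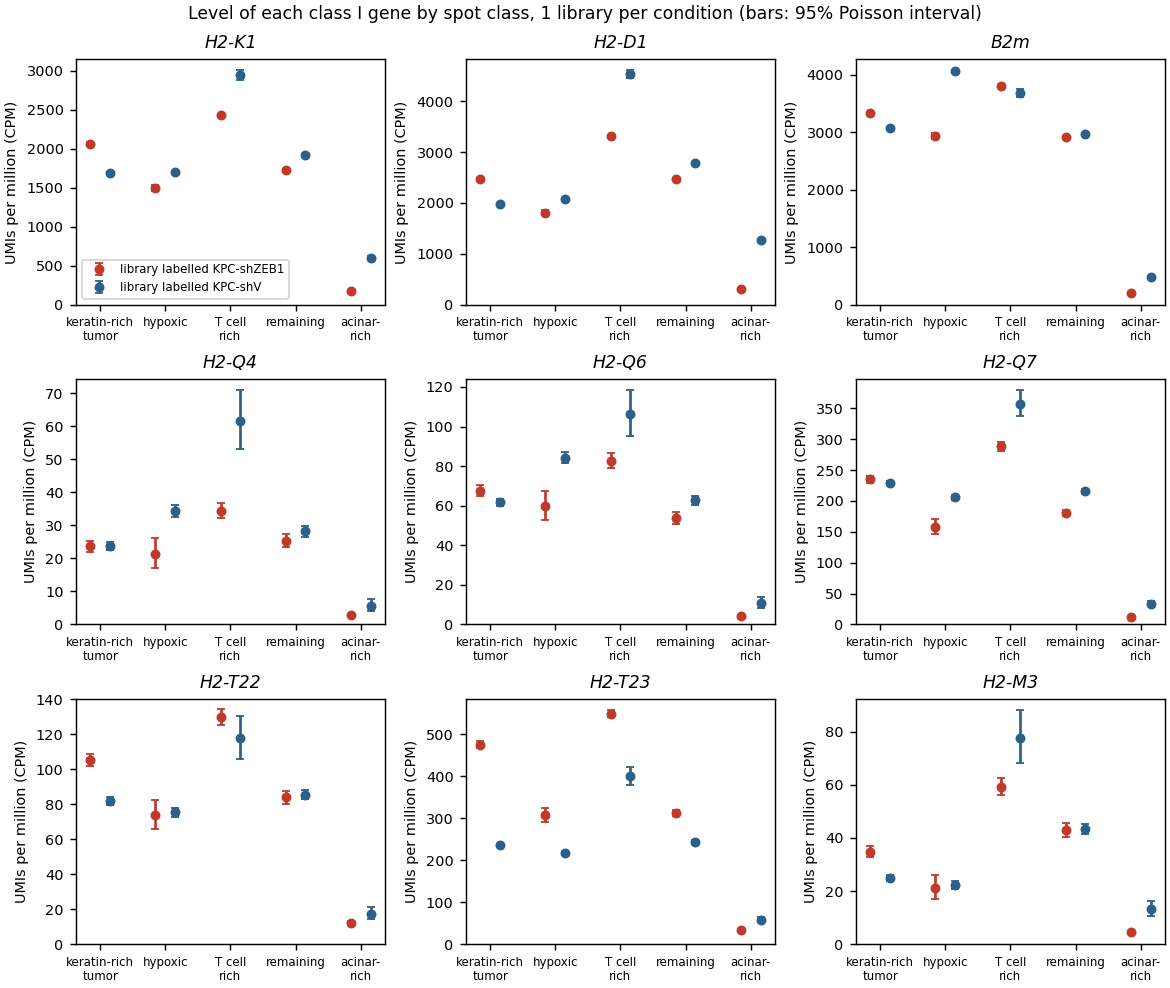
Level of each of the 9 class I genes (CPM, y axis from 0) in the 5 spot classes (x axis), with 1 point per library and its 95% Poisson interval. H2-T23 is higher in the KPC-shZEB1-labelled library in 4 classes, and every gene has its lowest level in acinar-rich spots in both libraries.

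B2m, the shared light chain, differed little in sum between the libraries outside acinar-rich spots and was lower in hypoxic spots labelled KPC-shZEB1. It reached 3330.4 CPM (95% interval 3318 to 3343) in the KPC-shZEB1-labelled library and 3321 CPM (3312 to 3329) in the KPC-shV-labelled library in spots that were not acinar-rich, a log2 ratio of 0.00. In keratin-rich tumor spots it stood at 3338 and 3085 CPM, a log2 ratio of 0.11 (0.10 to 0.12), and in T cell rich spots at 3806 and 3687 CPM, a log2 ratio of 0.05 (0.02 to 0.07).
In hypoxic spots B2m reached 2944 CPM in the KPC-shZEB1-labelled library and 4063 CPM in the KPC-shV-labelled library, a log2 ratio of -0.46 (-0.49 to -0.44). The latter was the highest summed B2m level of any class in either library, and 19.5% of the hypoxic spots labelled KPC-shZEB1 exceeded its spot median. Neutrophil genes (S100a8, S100a9, Csf3r and G0s2) moved with it, at 121 CPM in the 87 hypoxic spots labelled KPC-shZEB1 and 718 CPM in the 1103 labelled KPC-shV. In hypoxic spots with under 100 CPM of neutrophil genes, 54 and 69 in number, B2m was at 2419.5 and 3514 CPM, a log2 ratio of -0.54. With 100 to 200 CPM of these genes, in 22 and 120 spots, it was at 3540.4 and 3694 CPM, a log2 ratio of -0.06. The bins above held only 5, 3 and 3 spots labelled KPC-shZEB1 and gave -0.36, 0.22 and 0.31, so the sign of the B2m difference was not the same along the neutrophil genes. The log2 ratio of H2-T23 was above 0 in each of the 5 bins, from 0.45 to 1.12. Its interval in the highest bin, -0.16 to 1.22, held 0.

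Of the nonclassical heavy chains, H2-T23 was higher in the KPC-shZEB1-labelled library in each class but the acinar-rich one, and the Q genes were not. In keratin-rich tumor spots H2-T23 stood at 476.0 CPM (95% interval 468 to 484) in the KPC-shZEB1-labelled library and 236 CPM (233 to 240) in the KPC-shV-labelled library, a log2 ratio of 1.01 (0.98 to 1.04) or 2.02-fold. Of the 11502 genes that reached 100 UMIs in each library there, 4.03% had a higher ratio. A spot of this class had a median of 470.0 CPM against 192 CPM of H2-T23, 81.1% of the spots labelled KPC-shZEB1 exceeded the median spot labelled KPC-shV and 34.3% exceeded its 95th percentile.
The log2 ratio of H2-T23 was 0.46 (0.37 to 0.54) in T cell rich spots, at 550 against 400.4 CPM, and 0.35 (0.31 to 0.40) in remaining spots, at 312 against 244 CPM. In hypoxic spots the summed level was 307 against 217 CPM, a log2 ratio of 0.50 (0.42 to 0.58), yet the median spot held 179 CPM against 189 CPM. The higher sum there came from part of the spots: 17.2% of the hypoxic spots labelled KPC-shZEB1 exceeded the 95th percentile of those labelled KPC-shV.
H2-Q7 had log2 ratios of 0.04 (-0.00034 to 0.08) in keratin-rich tumor spots, -0.39 (-0.50 to -0.27) in hypoxic spots and -0.31 (-0.40 to -0.22) in T cell rich spots. H2-Q6 followed with 0.13, -0.49 and -0.36. H2-Q4, read at 21.4 to 61.5 CPM in these classes, had -0.01, -0.68 and -0.84. In remaining spots H2-Q7, H2-Q6 and H2-Q4 had -0.26, -0.22 and -0.15, B2m had -0.03 and H2-M3 had -0.01. The Q genes are close copies of each other, so the division of UMIs between them is uncertain, and H2-Q4 overlaps an antisense gene, as H2-T22 and H2-T23 do.
H2-T22, a chain that some gamma delta T cells recognize, was at 105 against 81.8 CPM in keratin-rich tumor spots, a log2 ratio of 0.37 (0.30 to 0.43), and within 0.14 of 0 in hypoxic, T cell rich and remaining spots. H2-M3 was at 34.8 against 24.99 CPM in keratin-rich tumor spots, a log2 ratio of 0.48 (0.37 to 0.58), and at 59.3 against 77.7 CPM in T cell rich spots, a log2 ratio of -0.39 (-0.59 to -0.19). In hypoxic spots H2-M3 had 90 UMIs under the label KPC-shZEB1 and 953 under KPC-shV, where the median spot held none. The H2-M3 ratio in hypoxic spots thus rests on few molecules.

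Read against all genes, most members stood above the middle in keratin-rich tumor spots and H2-T23 stood near the edge. In spots that were not acinar-rich the median log2 ratio of the 9 members was 0.20 and that of 14389 genes was -0.02. H2-T23 was the 1 member at least 1.5-fold higher, with a log2 ratio of 0.90 (0.88 to 0.92), where 11.2% of genes were, and no member was 1.5-fold lower, where 6.45% of genes were. In keratin-rich tumor spots 8 of 9 members had a log2 ratio above 0, against 43.1% of genes, and 1 of 9, H2-T23, was 1.5-fold higher, against 8.55% of genes. In T cell rich spots 3 of 9 members had a log2 ratio above 0, against 45.9% of genes. There 1 of 9, H2-Q4, was 1.5-fold lower, against 12.9% of genes. In hypoxic spots 0 of the 7 members that reached 100 UMIs in each library were 1.5-fold lower, against 5.83% of genes. Of these 7 members, 1 had a log2 ratio above 0, against 49.3% of genes. In remaining spots 1 of 9 members did, against 41.3% of genes, with a median of -0.15 over members and -0.07 over genes. Over all spots 3 of 9 members were 1.5-fold lower, B2m, H2-Q4 and H2-Q6, against 39.1% of genes.

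**Figure D2:**
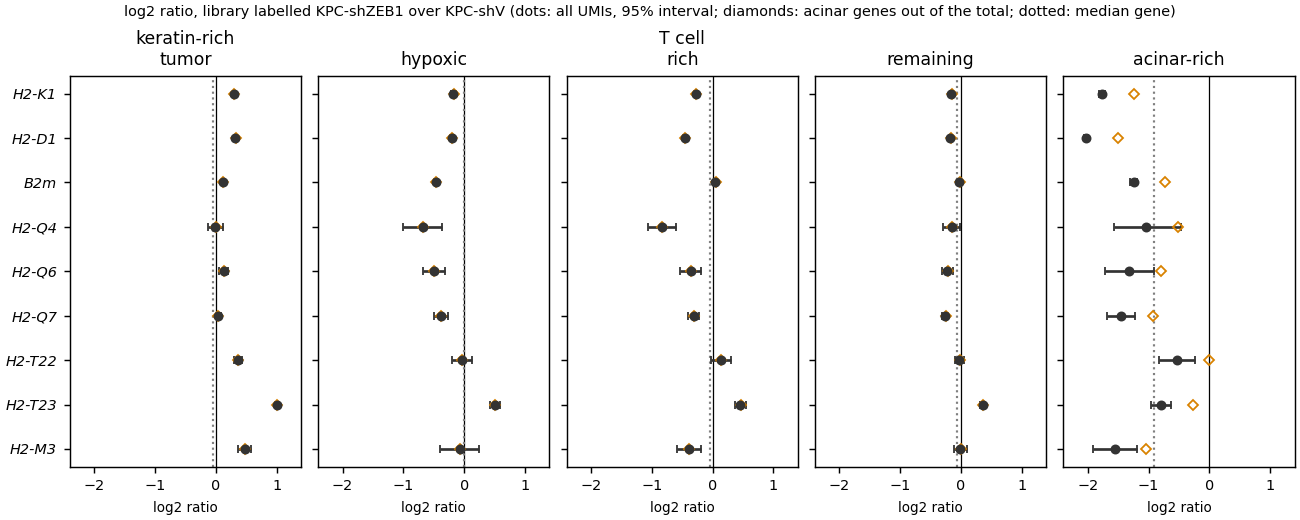
Log2 ratio of each class I gene, KPC-shZEB1-labelled over KPC-shV-labelled library (x axis), in each spot class. Dots with 95% counting intervals use all UMIs, open diamonds take acinar genes out of the total and the dotted line is the median of all genes tested. H2-T23 lies to the right of 0 in 4 classes. In acinar-rich spots the median over the 6 tested members, -1.35, lies left of the median gene at -0.91. There H2-D1 is furthest left, while H2-T22 and H2-T23 lie right of the median gene.

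Within each library, class I genes were higher in T cell rich than in keratin-rich tumor spots, and the step was larger in the KPC-shV-labelled library. H2-K1 and H2-D1 together stood at 5738 CPM in T cell rich and 4532 CPM in keratin-rich tumor spots of the KPC-shZEB1-labelled library, a log2 ratio of 0.34 (0.33 to 0.35), and at 7482 and 3657 CPM in the KPC-shV-labelled library, a log2 ratio of 1.03 (1.01 to 1.05). H2-M3 had the largest step in both, 0.77 (0.66 to 0.88) and 1.64 (1.44 to 1.83), and B2m the smallest, 0.19 and 0.26. H2-T23 had steps of 0.21 (0.17 to 0.24) and 0.76 (0.68 to 0.84). In the KPC-shV-labelled library, 7 of 9 members were at least 1.5-fold higher in T cell rich spots, against 20.8% of genes. In the KPC-shZEB1-labelled library, 1 of 9 was, against 12.5% of genes. T cell genes in the keratin-rich tumor spots themselves were at 41.6 CPM in the KPC-shZEB1-labelled library and 8.68 CPM in the KPC-shV-labelled library, so the baseline of the step differs.
Hypoxic spots had less of the family than keratin-rich tumor spots in the KPC-shZEB1-labelled library and no common direction in the KPC-shV-labelled library. The classical pair had a log2 ratio of hypoxic over keratin-rich tumor spots of -0.45 (-0.48 to -0.43) in the former and 0.05 (0.04 to 0.06) in the latter. For B2m the values were -0.18 (-0.21 to -0.15) and 0.40 (0.39 to 0.41), and for H2-T23 -0.63 (-0.71 to -0.55) and -0.12 (-0.16 to -0.08). H2-T23 was the 1 of 7 members at least 1.5-fold lower in the KPC-shZEB1-labelled library, against 3.47% of genes. Tumor epithelium genes were at 8341 CPM in hypoxic and 8870 CPM in keratin-rich tumor spots labelled KPC-shZEB1. Under KPC-shV they were at 7830 and 7077 CPM. In the same order macrophage genes were at 804 and 1616, then 576 and 1244 CPM. Ptprc was at 76.7 and 139.5, then 54.7 and 89.7 CPM. The part of this content in the contrast was not tested.
Along the hypoxia genes themselves, in spots that were not acinar-rich, the classical pair of the KPC-shZEB1-labelled library was at 4906 CPM in spots under 300 CPM of hypoxia genes and 3300.1 CPM in the 48 spots over 2400 CPM. In the KPC-shV-labelled library it was at 3680.2 and 3789.6 CPM at the ends and highest, at 4546 CPM, between 300 and 600 CPM. The log2 ratio between the libraries went from 0.41 in the lowest bin to -0.20 in the highest. That of H2-T23 went from 1.03 to 0.50 and stayed above 0 in each of the 5 bins.

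**Figure D3:**
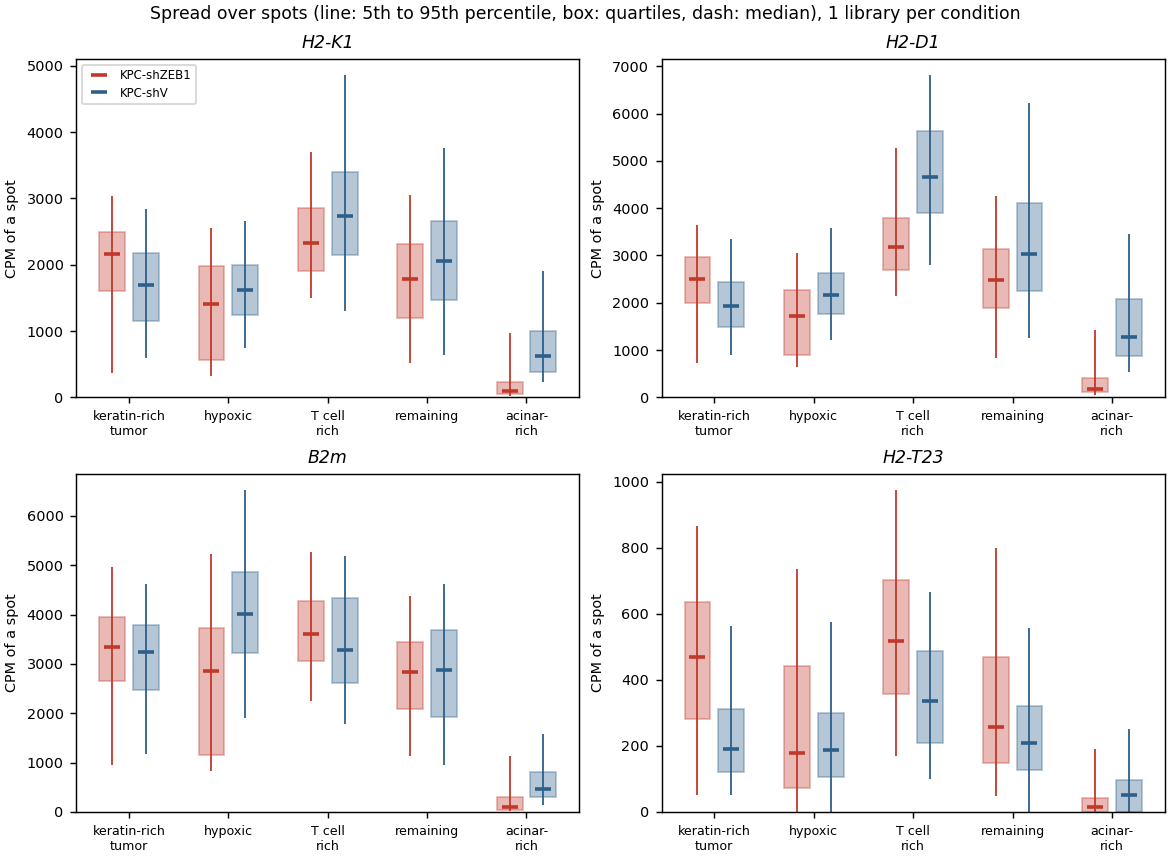
Level of H2-K1, H2-D1, B2m and H2-T23 in single spots (CPM of a spot, y axis from 0) by spot class and library. Lines run from the 5th to the 95th percentile of spots, boxes between the quartiles and dashes mark the median. H2-T23 in keratin-rich tumor spots has a median of 470.0 CPM against 192 CPM, while in hypoxic spots the medians are 179 and 189 CPM.

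Immune content was read beside these values with Ptprc and the T cell genes. Ptprc was at 139.5 CPM in keratin-rich tumor spots labelled KPC-shZEB1 and 89.7 CPM in those labelled KPC-shV. With spots that were not acinar-rich binned by Ptprc, the classical pair was higher where Ptprc was higher in both libraries, from 3265 CPM in spots under 50 CPM of Ptprc to 6208 CPM in spots over 400 CPM in the KPC-shZEB1-labelled library and from 3655 to 6245 CPM in the KPC-shV-labelled library. Between libraries within a bin the log2 ratio of the pair lay between -0.16 and 0.18. That of H2-T23 lay between 0.50 and 0.95 and was 0.50 in the bin with the least Ptprc, where 103 and 1018 spots held 325 and 230.1 CPM.
In 5 bins of the T cell genes, H2-T23 had log2 ratios of 0.39 to 0.63 and the classical pair -0.48 to -0.06. In keratin-rich tumor spots alone, averaged over 4 Ptprc bins with at least 20 spots of each library, the log2 ratio was 0.98 for H2-T23 and 0.23 for the pair, against 1.01 and 0.31 unbinned. Single bins ran from 0.59 to 1.15 for H2-T23 and from -0.0034 to 0.28 for the pair, so each bin of the pair lay below its unbinned value.
Bins of 16 interferon response genes gave another order. Between 400 and 1600 CPM of these genes the members were lower in the KPC-shZEB1-labelled library, except H2-M3 between 800 and 1600 CPM (0.33). In spots with 400 to 800 CPM, 83 and 400 in number, the log2 ratio was -0.80 for the pair, -0.91 for B2m, -1.71 for H2-Q7 and -0.52 for H2-T23. In the 554 and 467 spots with 3200 to 6400 CPM it was -0.03, -0.10, -0.32 and 0.42, and H2-T23 was between 0.35 and 0.45 in the 3 bins from 1600 CPM up. The libraries fill these bins unequally: 313 of 1466 spots labelled KPC-shZEB1 lay over 6400 CPM and 107 of 3305 labelled KPC-shV.

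Acinar-rich spots showed the lowest class I levels and, for members other than H2-T23, the largest log2 ratios by size of the 5 spot classes with all UMIs in the total, and the acinar share of a spot moved with both. H2-K1 was read at 177 CPM in those of the KPC-shZEB1-labelled library and 602 CPM in those of the KPC-shV-labelled library, a log2 ratio of -1.77 (-1.82 to -1.71). H2-D1 was at 311 and 1265 CPM, a log2 ratio of -2.03 (-2.06 to -1.99), and B2m at 205 and 484 CPM, a log2 ratio of -1.24 (-1.30 to -1.19). The nonclassical chains ran from -0.54 for H2-T22 to -1.56 for H2-M3, with H2-T23 at -0.79 (-0.96 to -0.63) and, relative to the median gene, at 0.12.
Acinar genes took 57.4% of the UMIs of these spots in the KPC-shZEB1-labelled library and 38.9% in the KPC-shV-labelled library. The median log2 ratio of all 5254 genes tested there was -0.91, and 5 of the 6 members that reached 100 UMIs in each library were 1.5-fold lower, against 71.7% of genes. With acinar genes out of the total the classical pair went from -1.94 to -1.42 and H2-T23 to -0.27. With 20 more acinar genes out, an alternative chosen after seeing the data, the pair went to -1.11. Other cells differed too. Fibroblast genes stood at 1439 and 6651 CPM and macrophage genes at 318 and 1149 CPM, and their part in the class I difference was not tested.
At a like acinar share the difference of the classical pair was smaller. Between 20% and 40% that of B2m, H2-Q7, H2-T22 and H2-T23 was opposite. In spots with 20% to 40% acinar UMIs, 89 and 151 in number, the log2 ratio was -0.32 for the classical pair, 0.57 for B2m and 1.17 for H2-T23. The other nonclassical chains had 0.36 (H2-M3), 0.44 (H2-Q6), 0.49 (H2-Q7), 0.96 (H2-Q4) and 0.98 (H2-T22) there. In spots with 40% to 60%, 311 and 96 in number, the classical pair, B2m and H2-T23 had -1.03, -0.29 and -0.07. With acinar genes out of the total they had -0.81, -0.06 and 0.16. The other nonclassical chains ran from -0.69 for H2-Q4 to 0.0063 for H2-T22 with all UMIs in the total. H2-Q4 was at only 2.83 (2.14 to 3.67) and 4.57 (2.61 to 7.42) CPM there. Within that last bin acinar genes still took 52.96% and 44.99% of UMIs and fibroblast genes stood at 1660.2 and 3292 CPM. The 354 spots with 60% to 80% were all labelled KPC-shZEB1, and the pair was at 201 CPM in them.
Along the acinar share, the classical pair without acinar genes in the total lay between 4449.6 and 4981 CPM in the KPC-shZEB1-labelled library up to a share of 20% and then went to 3170.2, 1227.5 and 554 CPM. In the KPC-shV-labelled library it lay between 4021 and 4991 CPM and then went to 3929.8 and 2150.5 CPM. On the same scale B2m and H2-T23 of the KPC-shV-labelled library were lower already at 5% to 20%, at 1549 and 174 CPM against 3370.2 and 238 CPM at under 0.1%. In these bins tumor epithelium genes were at 1125 and 6418 CPM, and fibroblast genes were at 30353 CPM in spots of 5% to 20%.

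**Figure D4:**
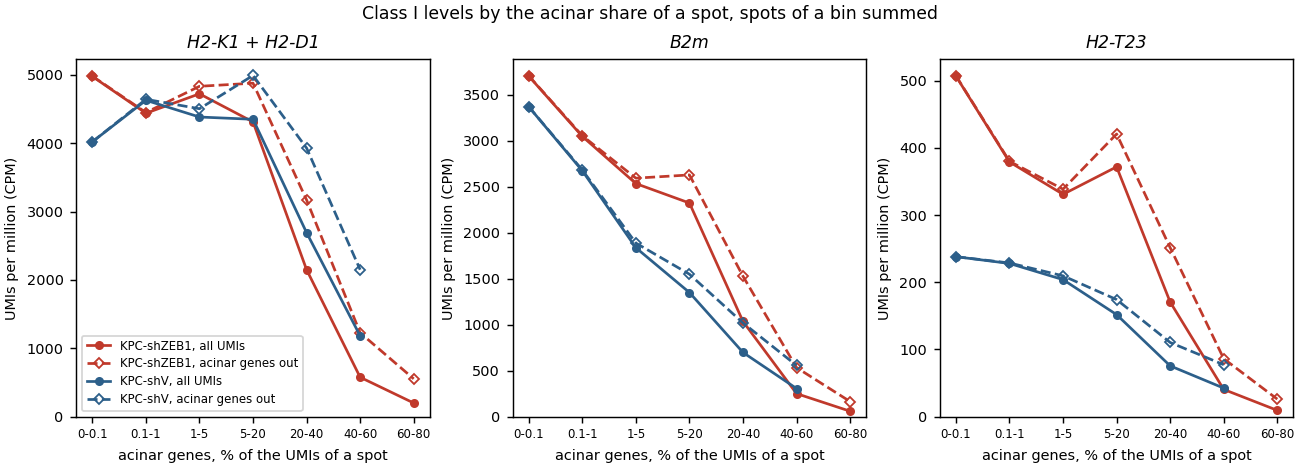
Level (CPM, y axis from 0) of H2-K1 and H2-D1 summed, B2m and H2-T23 in spots grouped by the percentage of their UMIs from acinar genes (x axis). Filled points use all UMIs, open diamonds leave acinar genes out of the total, and colors mark the libraries. Above 20% the classical pair is lower also without acinar genes in the total, and H2-T23 is higher in the KPC-shZEB1-labelled library up to a share of 40%.

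The balance within the family shifted toward H2-T23 in the KPC-shZEB1-labelled library, and in acinar-rich spots toward each nonclassical chain. Per 100 UMIs of the classical pair there were 10.5 UMIs of H2-T23 in its keratin-rich tumor spots and 6.46 in those of the KPC-shV-labelled library. The values were 9.28 and 5.75 in hypoxic spots, 9.58 and 5.35 in T cell rich spots and 6.80 and 3.08 in acinar-rich spots. H2-T22 per 100 UMIs of the pair was at 2.26 and 1.58 in T cell rich spots and 2.47 and 0.935 in acinar-rich spots. In acinar-rich spots H2-T23 itself was lower in CPM, at 33.2 and 57.6. These ratios use no total, so acinar UMIs do not dilute them, and they compare the same probes between libraries. They still differed between classes of a library, and the part of the cell mix of the spots was not tested.
The classical pair per UMI of B2m was 1.36 and 1.19 in keratin-rich tumor spots and 1.12 and 0.930 in hypoxic spots. It was 1.51 against 2.03 in T cell rich spots and 2.38 against 3.86 in acinar-rich spots, so the direction between the libraries turned with the class. H2-K1 per UMI of H2-D1 was 0.837 and 0.852 in keratin-rich tumor spots and 0.735 and 0.650 in T cell rich spots.

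Across single spots the members kept closer together in the KPC-shZEB1-labelled library. Over spots that were not acinar-rich, Pearson's r of log2 levels (with 10 CPM added) between H2-K1 and H2-D1 was 0.87 over 1466 spots in the KPC-shZEB1-labelled library and 0.72 over 3305 spots in the KPC-shV-labelled library. It was 0.86 and 0.47 between H2-K1 and B2m, and 0.74 and 0.34 between H2-K1 and H2-T23. The latter library had 632 of these spots under 20000 UMIs and the former 54. In spots with at least 20000 UMIs the values were 0.82 for H2-K1 with H2-D1, 0.72 with B2m and 0.55 with H2-T23 in the KPC-shV-labelled library, and 0.87, 0.88 and 0.80 in the KPC-shZEB1-labelled library. With the interferon response genes H2-T23 had r of 0.75 and 0.60 in these deeper spots. With the hypoxia genes H2-K1 had -0.25 and 0.06. Such values describe regions that share cells, depth and a library.
Over the 10 combinations of class and library, the gene most like H2-T23 among 4054 genes with a mean of at least 50 CPM was Irf1 (r = 0.995), which encodes an interferon regulatory factor. The gene most like H2-Q7 was Nlrc5 (0.997), the class I transactivator. For the summed classical pair these were, besides its own members, Ikbke (0.995), a kinase of innate immune signaling, Ctsd (0.989), a lysosomal protease, and Cdk2ap2 (0.988). The nearest genes were Cdk2ap2 for H2-K1, Ctsd for H2-D1, Cmtr1 for B2m, Rnf19b for H2-Q4, Zc3hav1 for H2-Q6, Prkcd for H2-T22 and Pla2g7 for H2-M3, with r from 0.985 to 0.997. Acinar-rich spots have the lowest level of each member in both libraries, and their part in these correlations was not tested.

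The machinery that supplies peptides and the interferon response genes were further apart between the libraries than the class I chains. In spots that were not acinar-rich, 4 of 8 peptide transport and loading genes were at least 1.5-fold higher in the KPC-shZEB1-labelled library and none 1.5-fold lower, with a median log2 ratio of 0.67. Over all genes in these spots 11.2% were higher and 6.45% lower by that fold, which is the background of the counts in spots that were not acinar-rich. Several markers of immune cells moved with these lists: T cell genes were at 79.1 and 13.7 CPM and Ptprc at 258.7 and 133 CPM. Macrophage genes were at 2439 and 1558 CPM and B cell genes at 36.9 and 8.61 CPM. Neutrophil genes went the other way, at 126 and 307 CPM. The part of these cells in the differences was not tested. Among the peptide transport and loading genes, Tapbpl, a tapasin-related editor of bound peptides, had the largest log2 ratio, 1.26. Erap1 (1.11), which trims peptides, and the transporter subunit Tap1 (0.90) followed. Tap1 was read at 303 and 162 CPM.
Of 6 immunoproteasome and activator genes, 4 were 1.5-fold higher. The catalytic subunits Psmb10, Psmb9 and Psmb8 had log2 ratios of 1.25, 1.13 and 0.79. Of 6 genes of the constitutive proteasome 0 were, with log2 ratios from -0.20 to 0.12.
Among regulators of class I transcription, Irf1 (0.93) was among those 1.5-fold higher, at 327 and 172 CPM. Nlrc5 was at 96.6 and 98.7 CPM, a log2 ratio of -0.03 (-0.07 to 0.01). Of 16 interferon response genes, which include Irf1, 10 were 1.5-fold higher, led by the chemokine Cxcl9 (1.596), the guanylate binding protein Gbp2 (1.56) and Ifng (1.42), which encodes interferon gamma and was read at 5.38 and 2.02 CPM. The list had a median of 0.996, against 0.20 for the class I family.
Other class I and class I-like genes with enough UMIs numbered 9, and 6 were 1.5-fold higher, among them H2-M2 (1.11), Cd1d1 (0.85), which presents lipids to NKT cells, and H2-Q2 (0.80). All 5 genes of the class II pathway were, from 1.08 for H2-Eb1 to 1.597 for H2-Aa. Of 9 genes for receptors of class I, 6 were 1.5-fold higher, with the CD8 chains Cd8b1 (2.45) and Cd8a (2.31) and the activating receptor gene Klrk1 (1.98) in front. Klra4 (-0.82), at 1.19 and 2.11 CPM, was 1.5-fold lower, and Klrc1 (-0.44), which encodes NKG2A, the receptor of Qa-1, was at 19.1 and 25.99 CPM.
The same lists were not alike in T cell rich spots. There 6.7% of all genes were 1.5-fold higher and 12.9% lower. By that fold 0 of 15 interferon response genes were higher and 4 lower, 0 of 5 immunoproteasome genes were higher, and 3 of 7 peptide loading genes were higher and 1 lower. In keratin-rich tumor spots, where 8.55% of all genes were 1.5-fold higher, the counts of such genes were 11 of 16, 4 of 6 and 4 of 8, respectively, with no gene 1.5-fold lower.

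**Figure D5:**
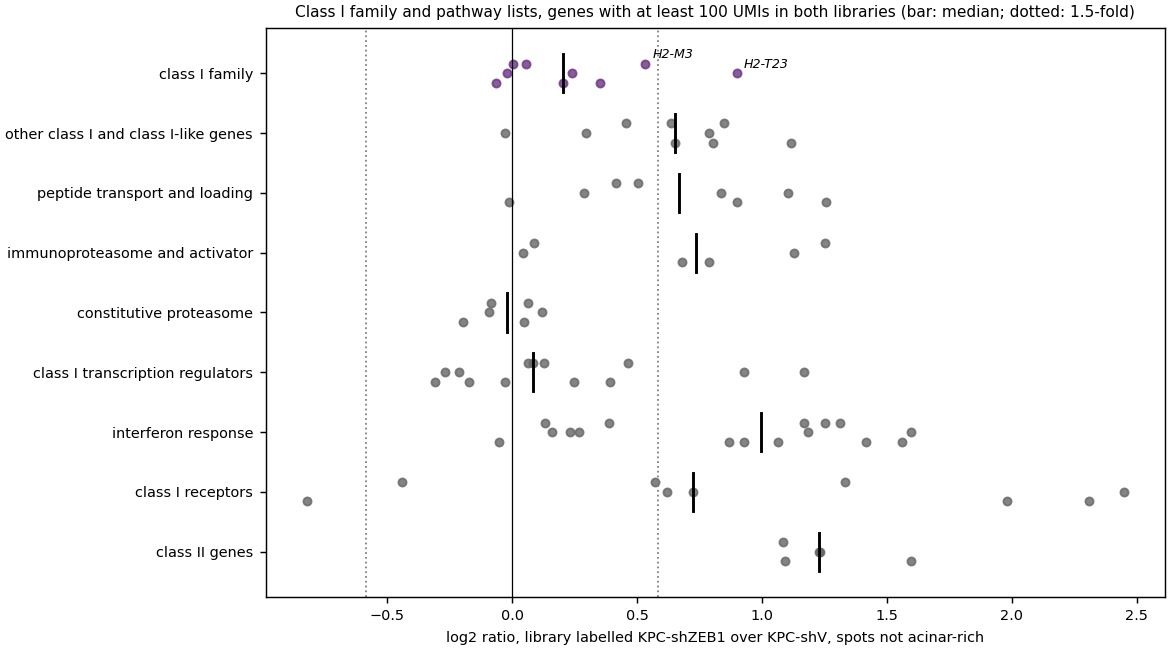
Log2 ratio, KPC-shZEB1-labelled over KPC-shV-labelled library, in spots that were not acinar-rich (x axis), for the 9 class I genes and each gene of the pathway lists that reached 100 UMIs in each library (1 point a gene, black bar at the list's median). Dotted lines mark 1.5-fold. The class I family has a median of 0.20, H2-T23 alone of it passes 1.5-fold, and the interferon response list has a median of 0.996.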

How the data were processed

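The authors hybridized probe pairs to methanol-fixed frozen sections, transferred them to Visium CytAssist slides and, per the labels, processed the reads with Space Ranger 2.0.1 against mm10. The deposited matrices hold whole-number UMI counts without normalization, for each gene in each spot over tissue. Sections and spot positions were not used here.

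From the deposited counts, levels in CPM, log2 ratios (exact conditional binomial intervals) and shares of spots were computed with Python 3.11.15, numpy 2.4.6, scipy 1.17.1 and pandas 2.3.3, and figures with matplotlib 3.10.9. Intervals are at the 95% level and cover counting error only. Median UMIs per spot were 24224 to 71904 in the classes of spots. The computation was tested on simulated data. Ratios past 1.5-fold were counted over genes that reached 100 UMIs in each library, since 1 library per condition allowed no test. Acinar genes used were 19 of 24 listed, tumor epithelium genes 5 of 6. The members, the gene lists, the spot classes and the alternatives were chosen with earlier results of these data known, and the lists are no independent support. All 9 members were drawn in every class in the figures, and the text does not give each value. Pathway genes were named when past 1.5-fold in spots that were not acinar-rich, with at most the 3 largest and 3 smallest of a list, and other genes named beside them were chosen after their values were seen. A gene of the regulator and interferon lists is not reported here by name, and it stays in the list counts. Likeness was Pearson's r of log2(CPM + 1) over 10 units. Alternatives changed the scaling, the total, the weight of spots, the depth minimum and the class cuts. Gene positions came from GENCODE M21 and promoters from RefSeq on GRCm38.p6, matched for 9 of 9 members, with no sequence of one chromosome searched. Spots were neither screened for doublets nor split into cell types. The single-cell data of the study were not analysed here.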

Additional observations from a re-analysis of the deposited data

How the results depend on the processing

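Values are log2 ratios of the KPC-shZEB1-labelled over the KPC-shV-labelled library. The classical pair was -0.37 over all spots, 0.22 outside acinar-rich spots, 0.31 in keratin-rich tumor, -0.19 in hypoxic, -0.38 in T cell rich and -1.94 in acinar-rich spots. Relative to the median gene it was 0.11, 0.24 and 0.36 in the first 3, -0.34 in T cell rich and -1.03 in acinar-rich spots. With acinar genes out of the total it was -0.018 over all, 0.23 outside acinar-rich and -1.42 in acinar-rich spots, and with 20 more acinar genes out, chosen after seeing the data, 0.14, 0.24 and -1.11. As a mean of spot CPM it was -0.37 over all, 0.087 outside acinar-rich, 0.24 in tumor, -0.36 in hypoxic and -2.001 in acinar-rich spots. Without the top 5% of spots it was -0.41 over all, 0.32 in tumor, -0.24 in hypoxic, -0.36 in T cell rich and -2.15 in acinar-rich spots. In spots with at least 20000 UMIs it was -0.35 over all, 0.25 outside acinar-rich and -1.70 in acinar-rich spots. An acinar cut at 5% gave 0.23 outside and -1.82 inside acinar-rich spots, and at 40% 0.20, -1.76 and, in tumor spots, 0.29. T cell cuts at 50 and 200 CPM gave -0.22 and -0.10. In hypoxic spots a cut at the KPC-shV median gave -0.038 and one at each library's own 75th percentile 0.023, with 0.34 in tumor spots. Tumor spots taken as all spots outside the other 3 classes gave 0.12.

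H2-T23 kept a ratio above 0 under the alternatives run outside acinar-rich spots (0.85 to 0.94) and in keratin-rich tumor (0.76 to 1.07), hypoxic (0.25 to 0.81) and T cell rich spots (0.39 to 0.59). In acinar-rich spots it was -0.79 and turned to 0.12 relative to the median gene. The causes of these shifts were not tested. No paired analysis was possible because each condition has 1 library and the labels give no replicate numbers. Depth limits H2-Q4 and H2-M3, with under 100 UMIs in hypoxic spots labelled KPC-shZEB1 and in acinar-rich spots labelled KPC-shV, and H2-Q6 in the latter.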
